A study of Mus musculus with 9 samples.

Results

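The genes described here encode the machinery of DNA replication and mitosis, and they were followed across 3 cell populations of the mouse trunk at E9.5. They were taken from a written list of 39 genes. The rule uses names and no measured value, although the list was drawn up with earlier results of these data known. Of these, 38 were measured, through 89 probe sets, out of 18193 genes and 45037 probe sets on the array; *Ccnb1*, which encodes cyclin B1, was not analysed here because no probe set carried its symbol alone in the annotation used. Each gene was read from its brightest probe set. All values are on the log2 scale of the deposited arrays, so that a difference of 1 is a doubling and the limit of 0.5 used below is a 1.41-fold difference.

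The study asked which genes respond to the transcription factor Pax3 in the somite, and 3 arrays were hybridised for each of 3 groups, 9 in all. The PAX3-FKHR/GFP group holds GFP positive cells of Pax3PAX3-FKHR/GFP embryos. In these, one *Pax3* allele carries GFP in place of *Pax3* and the other, together with an IRES-nlacZ reporter, encodes PAX3-FKHR, the fusion protein of alveolar rhabdomyosarcoma, which acts as a strong form of Pax3. The fusion allele is conditional and was switched on with *PGK-Cre*, a transgene with a broadly active promoter, so that it is not limited to muscle precursors by the recombinase. The GFP/+ group holds GFP positive cells of Pax3GFP/+ embryos, which keep 1 normal *Pax3* allele. The GFP- group holds cells without GFP; its labels give no genotype, and the study's text names Pax3GFP/+ embryos in one place and wild type in another. Tissue was the hypaxial dermomyotome of interlimb somites, pooled from many embryos of a genotype before sorting, although one protocol field of the labels speaks of forelimb buds. The study's methods call the 3 arrays of a group biological replicates; how embryos were divided among the 3 samples is not given in the sources used here. In sorted bulk samples, fewer cells of a type and less RNA per cell cannot be told apart.

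Replication begins when Cdc6 and Cdt1 load the ring-shaped MCM2-7 helicase onto origins in G1. Cyclin E and then cyclin A, with their kinases, start the S phase, in which primase, DNA polymerase alpha and the sliding clamp PCNA copy the template with nucleotides supplied by ribonucleotide reductase and thymidylate synthase. Cyclin B with Cdk1, the Aurora and Polo-like kinases, the spindle checkpoint and a set of kinesins and kinetochore proteins then carry the cell through mitosis. The early genes are classic targets of E2F factors and the late ones of the MuvB complex with B-Myb and FoxM1, and both sets are low in cells that have left the cycle. In the somite, dermomyotome cells divide, whereas myotome cells stop dividing as they differentiate.

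The promoters of these genes were read to see which sequence features the replication genes and the mitosis genes share. RefSeq promoter windows (GRCm38.p6), from 250 bases before to 50 after the annotated start, were found for 30 of the 38 measured genes; the 8 others were *Mcm4*, *Gins1*, *Ccne2*, *Ccna2*, *Foxm1*, *Aurkb*, *Kif20a* and *Tpx2*. The motifs searched on both strands were the CCAAT box (CCAAT), the cell cycle homology region or CHR (TTTGAA), and the E2F site (TTTGGCGC, TTTCGCGC or TTCCCGCC). A gene with several windows counted once if any window held the motif. E2F letters stood in 9 of 14 replication genes and in 0 of 12 mitosis genes, and in 3.39% of all 27025 genes with a window. CHR letters stood in 8 of the 12 mitosis genes, in 1 of the 14 replication genes (*Mcm2*) and in 20.2% of all genes. The CCAAT box was in 10 of the 14 and 10 of the 12, against 41.1% of all genes. Median GC content was 57.7% in the listed genes and 52.7% over all genes. In 2 places matches of different motifs overlapped, as at *Prim1*. These are letter matches in a short window, given as a description without a test. Stretches of 110 bases that end at the base before the start are shown for a few genes, 5′ to 3′ on the gene's own strand with every match in capitals: *Mcm6* and *Rrm1* for the replication pattern, *Cdc20* and *Top2a* for the mitosis pattern, and *Cdk1*, which has both CCAAT and CHR letters here and an E2F match farther upstream.
Mcm6, chr1:128359706-128359815, minus strand: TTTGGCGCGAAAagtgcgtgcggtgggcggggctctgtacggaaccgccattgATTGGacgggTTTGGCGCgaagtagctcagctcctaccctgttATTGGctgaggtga
Rrm1, chr7:102441585-102441694, plus strand: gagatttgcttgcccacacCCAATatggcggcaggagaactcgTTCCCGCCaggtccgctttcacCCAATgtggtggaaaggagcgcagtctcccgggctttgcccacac
Cdc20, chr4:118437344-118437453, minus strand: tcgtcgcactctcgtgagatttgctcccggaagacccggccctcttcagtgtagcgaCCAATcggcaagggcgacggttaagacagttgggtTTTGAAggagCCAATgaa
Top2a, chr11:99024190-99024299, minus strand: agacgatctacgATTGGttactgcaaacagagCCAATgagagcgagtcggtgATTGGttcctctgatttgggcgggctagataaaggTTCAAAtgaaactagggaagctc
Cdk1, chr10:69352913-69353022, minus strand: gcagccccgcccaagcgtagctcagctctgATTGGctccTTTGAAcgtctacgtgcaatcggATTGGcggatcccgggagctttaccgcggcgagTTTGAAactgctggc

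No replication or mitosis gene, read from its brightest probe set, passed the test for a difference between any pair of the 3 populations. At the study's limits of adjusted p under 0.05 and a log2 difference of at least 0.5 (limma), 0 of 38 genes were called in PAX3-FKHR/GFP against GFP/+, where 2.02% of all genes were called. In GFP/+ against GFP-, 0 of 38 were called against 6.96% of all genes, and in PAX3-FKHR/GFP against GFP-, 0 of 38 against 7.83%. Shares this small amount to few genes in a list of 38, so counts of 0 do not set these genes apart from the background. The share of all genes was not matched to the brightness of the list. The local pooled error test of the study's methods also called 0 in each of the 3. At an unadjusted p under 0.05 (limma) there were 1, 8 and 4 genes in the same order, which is 2.63%, 21.1% and 10.5% of the 38 against 11.1%, 24.4% and 22.6% of all genes. None of these shares exceeds that of all genes. The 3 comparisons share their samples, so they are not independent of one another.

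The differences were small as well as uncalled. They ran from -0.16 to 0.24 in PAX3-FKHR/GFP against GFP/+, with a median of 0.0049, and 19 genes lay on each side of 0. In GFP/+ against GFP- they ran from -0.17 to 0.21 with a median of 0.0092, and in PAX3-FKHR/GFP against GFP- from -0.27 to 0.37 with a median of 0.041. The medians over all genes were -0.0015, 0.0078 and 0.0072. The sign of each median of the listed genes rested on single arrays: without replicate 3 of the fusion group the first was -0.069 and the third -0.022, and without replicate 1 of that group they were 0.063 and 0.096, while the second was -0.011 without GFP- replicate 2. The 95% interval of the difference lay inside ±0.5 for 38, 38 and 37 of the 38 genes. At the brightest probe set, a change of 1.41-fold or more thus lay outside each gene's interval but that of *Ccne1* in the third comparison. Intervals inside ±0.5 held for 92.1%, 86.7% and 84.1% of all genes. This did not extend to every dimmer probe set: one of *Cenpa* had an interval from 0.52 to 0.98 in GFP/+ against GFP-. Others also reached beyond 0.5, such as one of *Bub1* in that comparison (0.22 to 0.59). In PAX3-FKHR/GFP against GFP/+ so did sets of *Cenpe* (0.018 to 0.58), *Kif11* (-1.23 to 0.078) and *Ccne1* (0.13 to 0.54). Over all 89 probe sets the differences ran from -0.58 to 0.40, -0.20 to 0.75 and -0.27 to 0.58 in the 3 comparisons.

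**Figure D1:**
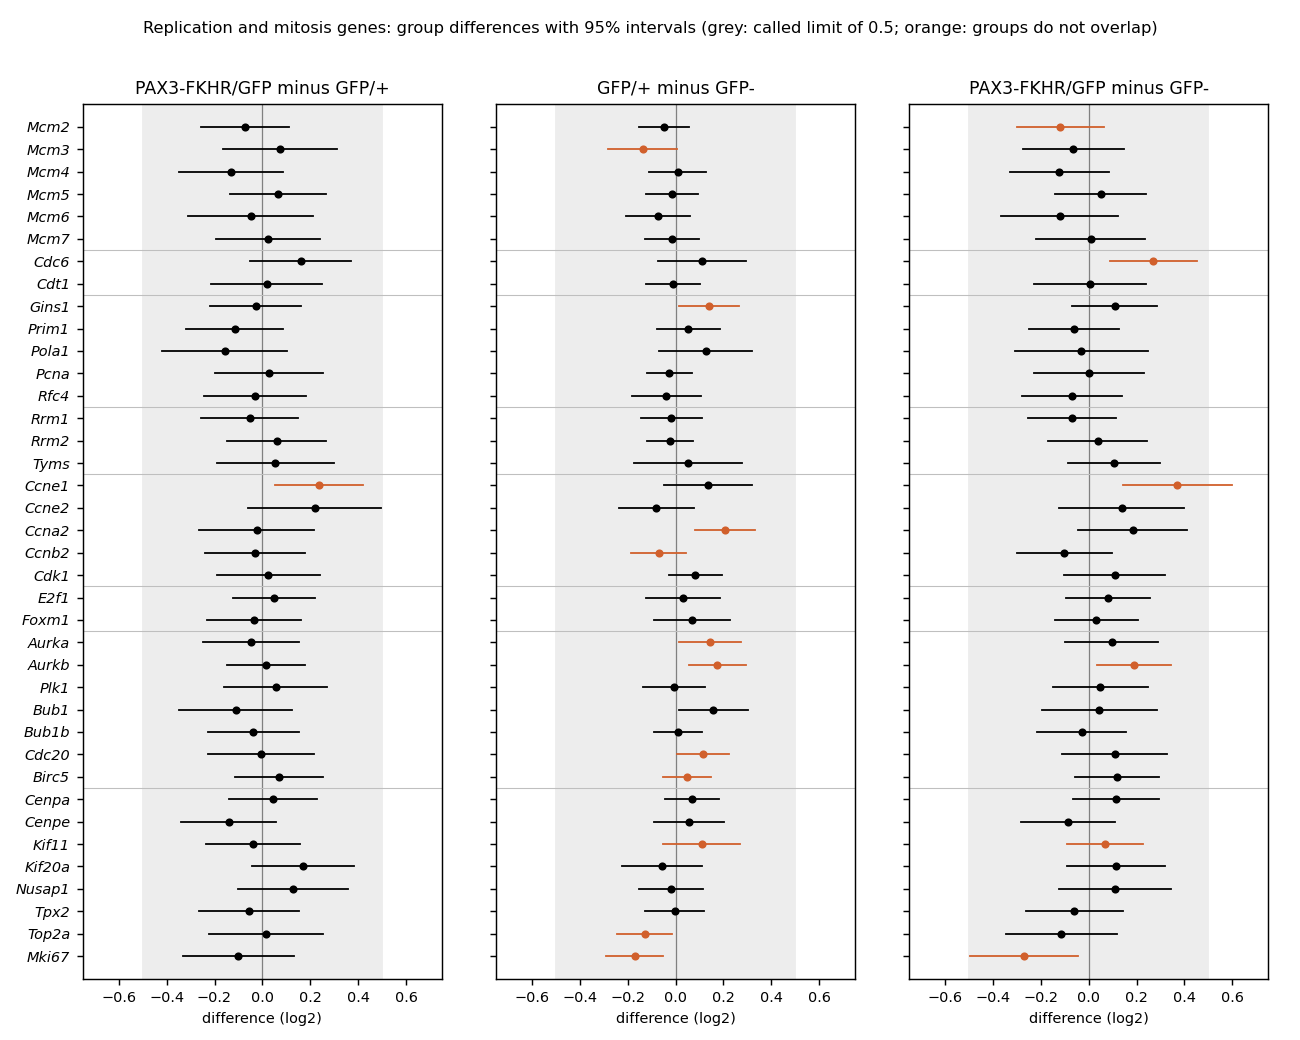
Difference between group means (log2, horizontal axis) of each of the 38 genes, by role from top to bottom, with its 95% interval from limma; the grey band marks the limit of 0.5 and orange marks genes whose 3 arrays of one group all lie above or below the 3 of the other. Every point lies within the band, and the only interval that leaves it is that of *Ccne1* in PAX3-FKHR/GFP against GFP-, whose upper end is 0.60.

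The range of each gene over all arrays was narrow too, also where the groups did not overlap. Over the 9 arrays the highest and lowest value of a gene differed by 0.21 to 0.67, with a median of 0.33, and by less than 0.5 for 34 of the 38. Of the 5068 genes with a mean of 8 or more, 79.7% stayed within 0.5, with a median range of 0.35. Signal was well clear of the bulk of the array for most: 34 of the 38 genes had a mean of 8 or more and 22 of 10 or more, where the median of each array was between 4.63 and 4.68. The 4 under 8 were *Tyms*, *E2f1*, *Foxm1* and *Pola1*. Signal depends on the probes, so these values do not rank the genes' transcript levels. For 11 of the 38 the probe set was of a class that can also bind other transcripts.

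**Figure D2:**
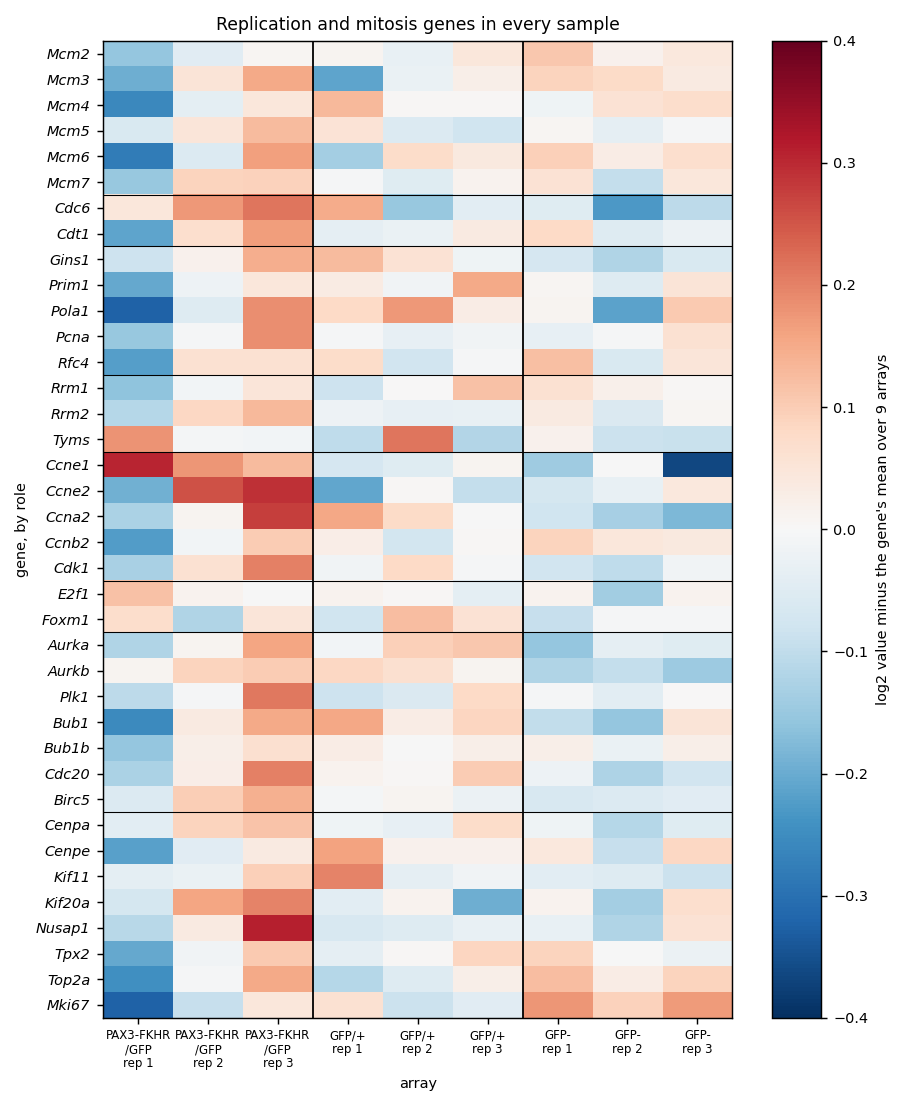
Log2 value of each of the 38 genes (rows, by role) on each of the 9 arrays (columns), minus the gene's mean over the 9 arrays; red is above and blue below that mean. The first column, PAX3-FKHR/GFP replicate 1, is blue in most rows, and no block of rows separates all 3 groups from one another. By median, the mitotic kinase and checkpoint rows lie at -0.063 to -0.047 in GFP- and 0.011 to 0.080 in GFP/+. The MCM2-7 rows lie at 0.023 to 0.074 in GFP- and -0.028 to 0.020 in GFP/+.

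Among the replication genes, the 6 subunits of the MCM2-7 helicase, which unwinds DNA at the fork, had 0 calls in the 3 comparisons. *Mcm4* read 10.94, 11.15 and 11.24 in PAX3-FKHR/GFP, 11.32, 11.20 and 11.20 in GFP/+, and 11.18, 11.25 and 11.27 in GFP-. The fusion group overlapped both others, and its difference from GFP/+ was -0.13 ± 0.098 (SE; adjusted p = 0.749, limma). *Mcm6* read 11.36, 11.58 and 11.80 in PAX3-FKHR/GFP, 11.50, 11.71 and 11.68 in GFP/+, and 11.74, 11.67 and 11.71 in GFP-. Its 3 fusion arrays alone spanned the values of the other 6, and the difference from GFP- was -0.12 ± 0.11 (adjusted p = 0.647, limma). *Mcm3* read 10.33, 10.51 and 10.56 in GFP/+ and 10.63, 10.61 and 10.57 in GFP-, while the fusion arrays read 10.34, 10.59 and 10.69. The GFP/+ arrays all lay below the GFP- ones, with a difference of -0.14 ± 0.064 (adjusted p = 0.281, limma) and an interval from -0.28 to 0.0069. *Mcm2*, *Mcm5* and *Mcm7* had differences between -0.12 and 0.066 over the 3 comparisons at their brightest probe sets. A second *Mcm2* probe set (mean 10.75) did not overlap GFP- in either GFP positive group. It gave -0.20 ± 0.073 for GFP/+ and -0.25 ± 0.085 for the fusion group (adjusted p = 0.153 and 0.116, limma). A second *Mcm5* probe set (mean 9.83) gave 0.25 ± 0.090 in fusion against GFP/+ and -0.19 ± 0.057 in GFP/+ against GFP-, both without overlap. The adjusted p was 0.331 and 0.0735 (limma), and fusion against GFP- gave 0.056 with overlap.

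*Cdc6* and *Cdt1* load the helicase onto origins. *Cdc6* read 9.65, 9.78 and 9.82 in PAX3-FKHR/GFP, 9.75, 9.45 and 9.56 in GFP/+, and 9.56, 9.38 and 9.502 in GFP-. All 3 fusion arrays lay above the 3 GFP- arrays, with a difference of 0.27 ± 0.082 that missed the limit (adjusted p = 0.0734, limma), and GFP/+ overlapped both. *Cdt1* differed by at most 0.018 in any comparison.

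The 5 genes of the fork and of priming had 0 calls. *Pola1*, the catalytic subunit of DNA polymerase alpha, read 7.57, 7.85 and 8.08 in PAX3-FKHR/GFP, 7.98, 8.07 and 7.93 in GFP/+, and 7.91, 7.68 and 8.004 in GFP-. It had the lowest difference of the list in PAX3-FKHR/GFP against GFP/+, -0.16 ± 0.12 (adjusted p = 0.751, limma), with overlapping groups. *Pcna*, the sliding clamp, differed by 0.027, -0.025 and 0.0013 in the 3 comparisons. *Gins1*, a subunit of the GINS complex that activates the helicase, lay higher in all 3 GFP/+ arrays than in the GFP- arrays, by 0.14 ± 0.056 (adjusted p = 0.204, limma). *Prim1*, the small primase subunit, and *Rfc4*, a subunit of the clamp loader, overlapped in each comparison. Of the genes of nucleotide supply, *Rrm1* and *Rrm2*, the subunits of ribonucleotide reductase, stayed within 0.069 and 0.060 of 0. *Tyms* was dim: its 4 probe sets did not exceed 5.93 on any array, and it had 0 calls.

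The cyclins held the largest differences of the list. *Ccne1*, which encodes cyclin E1 and drives entry into S phase, read 11.18, 11.05 and 11.00 in PAX3-FKHR/GFP, 10.81, 10.83 and 10.89 in GFP/+, and 10.73, 10.88 and 10.51 in GFP-. All 3 fusion arrays lay above all other 6. The difference was 0.24 ± 0.084 from GFP/+ (adjusted p = 0.317, limma) and 0.37 ± 0.10 from GFP- (1.29-fold; adjusted p = 0.0485, limma), under the limit of 0.5 in both. Leaving out any one of the 6 arrays of the latter put its adjusted p (limma) between 0.0527 and 0.249. The probe set is one of the 11 that can bind other transcripts. A second probe set of the gene read 9.09, 9.25 and 9.39 in PAX3-FKHR/GFP, 8.83, 8.95 and 8.95 in GFP/+, and 8.92, 8.91 and 8.78 in GFP-. There too the fusion arrays lay highest, by 0.33 ± 0.093 over GFP/+ (adjusted p = 0.151, limma) and 0.37 ± 0.090 over GFP- (adjusted p = 0.0241, limma).

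*Ccne2*, encoding cyclin E2, read 8.06, 8.51 and 8.55 in PAX3-FKHR/GFP, 8.05, 8.26 and 8.16 in GFP/+, and 8.18, 8.22 and 8.30 in GFP-. The fusion arrays replicate 2 and 3 were the highest of the 9 and replicate 1 was among the lowest, for a difference from GFP/+ of 0.22 ± 0.13 (adjusted p = 0.637, limma). *Ccna2*, encoding cyclin A2 of S phase and early mitosis, read 10.84, 10.76 and 10.68 in GFP/+ and 10.61, 10.55 and 10.50 in GFP-, and 10.56, 10.69 and 10.96 in PAX3-FKHR/GFP. The GFP/+ arrays did not overlap the GFP- arrays, with a difference of 0.21 ± 0.055 (adjusted p = 0.0479, limma), and the fusion arrays overlapped both. Without any one of those 6 arrays the adjusted p (limma) was between 0.0520 and 0.177. Its second probe set gave 0.15 ± 0.050 (adjusted p = 0.128, limma). *Ccna2* and *Ccne1* were the only listed genes with an adjusted p under 0.05 in any comparison when no fold limit was set, 0, 1 and 1 of 38 in the 3 comparisons, where 2.55%, 12.5% and 12.4% of all genes passed. *Ccnb2* (cyclin B2) and *Cdk1*, the kinase of mitotic entry, differed by no more than 0.11.

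Both transcription factors of the list had a mean under 8 and 0 calls. *E2f1*, an activator of S phase genes, had values from 6.76 to 7.02 over the 9 arrays, and *Foxm1*, an activator of G2 and M phase genes, from 7.46 to 7.71. Another *E2f1* probe set, almost as bright (mean 6.78 against 6.90), lay higher in all fusion arrays than in all GFP/+ arrays. The difference was 0.22 ± 0.077 (adjusted p = 0.315, limma). A dimmer one, with a mean of 5.30, gave -0.049 there with overlap.

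**Figure D3:**
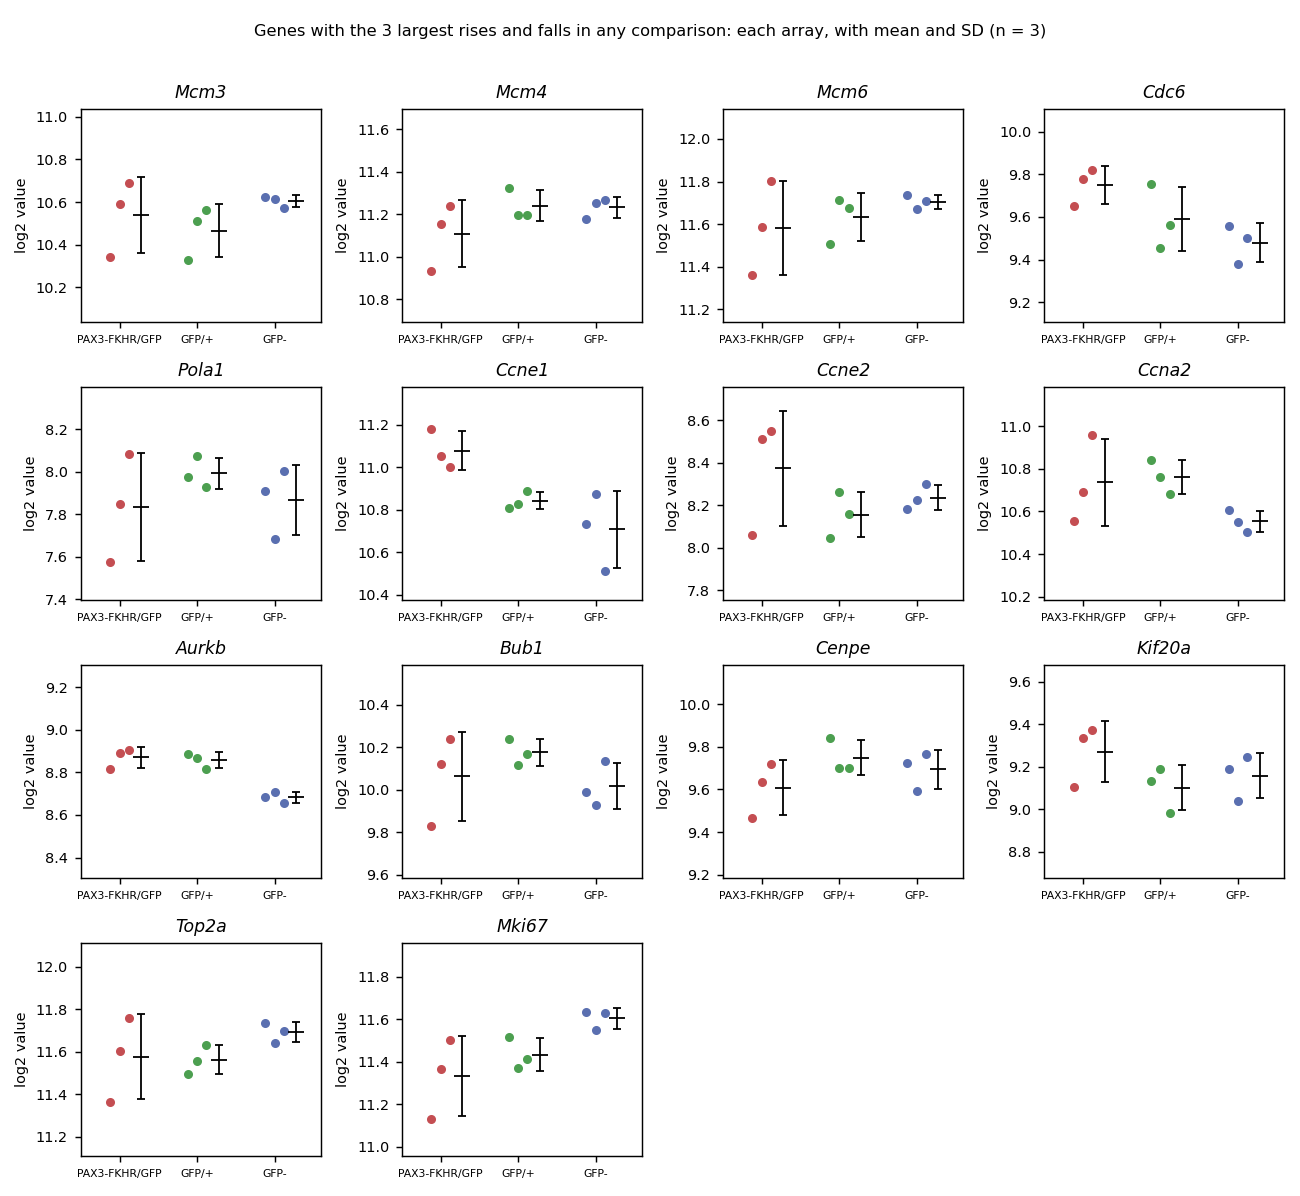
Log2 value on each array (points) of the 14 genes with the 3 largest rises or falls in any comparison, with the group mean and SD (n = 3) beside the points; every vertical axis spans 1 log2 unit. The fusion arrays of *Ccne1* lie above the other 6, the GFP- arrays of *Aurkb* lie below the other 6, and in most panels the first fusion array is the lowest of its group.

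Of the 7 mitotic kinase and checkpoint genes, 6 had a difference above 0 in GFP/+ against GFP-, with a median of 0.11 and 0 calls. Over all 18193 genes, 9587 lay above 0 there. *Aurkb*, the Aurora kinase of the chromosomal passenger complex, read 8.82, 8.89 and 8.91 in PAX3-FKHR/GFP, 8.89, 8.87 and 8.82 in GFP/+, and 8.68, 8.71 and 8.66 in GFP-. The GFP- arrays were the lowest 3 of the 9. The difference was 0.17 ± 0.053 in GFP/+ (adjusted p = 0.0832, limma) and 0.19 ± 0.070 in PAX3-FKHR/GFP (adjusted p = 0.156, limma). *Bub1*, a spindle checkpoint kinase, read 10.24, 10.12 and 10.17 in GFP/+, 9.99, 9.93 and 10.14 in GFP-, and 9.83, 10.12 and 10.24 in the fusion group. The groups overlapped, and the difference between GFP/+ and GFP- was 0.16 ± 0.064 (adjusted p = 0.208, limma). *Aurka*, the Aurora kinase of the spindle poles, *Cdc20*, the activator of the anaphase-promoting complex, and *Birc5*, another passenger protein, each lay higher in all GFP/+ than in all GFP- arrays, by 0.14, 0.11 and 0.048. *Plk1* and *Bub1b* overlapped in each comparison. Groups thus did not overlap for 4 of these 7 genes in GFP/+ against GFP-, beside 28.9% of the 38 and 28.2% of all genes.

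The 8 genes of the spindle, kinetochore and chromosome went both ways. *Mki67*, which encodes the proliferation antigen Ki-67, read 11.13, 11.37 and 11.50 in PAX3-FKHR/GFP, 11.52, 11.37 and 11.41 in GFP/+, and 11.63, 11.55 and 11.63 in GFP-. The GFP- arrays were the highest 3 of the 9, by 0.17 over GFP/+ (-0.17 ± 0.053, adjusted p = 0.0877, limma) and by 0.27 over the fusion group (-0.27 ± 0.10, adjusted p = 0.164, limma). *Top2a*, a topoisomerase that untangles chromosomes, read 11.50, 11.56 and 11.63 in GFP/+ and 11.73, 11.64 and 11.70 in GFP-, without overlap (-0.13 ± 0.051, adjusted p = 0.187, limma), and 11.37, 11.60 and 11.76 in PAX3-FKHR/GFP. The antigen and the kinase *Aurkb*, both used as signs of dividing cells, thus stood on opposite sides of 0 in the same 2 groups. *Cenpe*, a kinetochore motor, read 9.47, 9.64 and 9.72 in PAX3-FKHR/GFP and 9.84, 9.70 and 9.70 in GFP/+ (-0.14 ± 0.090, adjusted p = 0.687, limma). *Kif20a*, a kinesin of cytokinesis, read 9.11, 9.33 and 9.37 against 9.14, 9.19 and 8.98 (0.17 ± 0.096, adjusted p = 0.630, limma). Groups overlapped for both. *Cenpa*, *Nusap1* and *Tpx2* overlapped in each comparison, and *Kif11* lay higher in all arrays of either GFP positive group than in GFP-, by 0.11 and 0.069. Another *Kif11* probe set, almost as bright (mean 8.36 against 8.38), gave -0.16 and 0.097 in these comparisons, with overlap in both. A dimmer one, with a mean of 6.30, gave 0.61 and 0.037, also with overlap.

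In total the groups did not overlap for 1, 11 and 6 of the 38 genes in the 3 comparisons. The same was true of 14.6%, 28.2% and 25.5% of all genes, against 2.63%, 28.9% and 15.8% of the listed genes, which is below the background share in the first and the third comparison and near it in the second. After quantile normalization of the 9 arrays, an alternative added after the data were seen, the direction turned in the third: the groups did not overlap for 8, 12 and 17 genes, which is 21.1%, 31.6% and 44.7% of the listed genes against 21.2%, 32.4% and 33.8% of all genes. As deposited, in GFP/+ against GFP-, 7 of the 11 were higher in GFP/+ (*Ccna2*, *Aurkb*, *Aurka*, *Gins1*, *Cdc20*, *Kif11* and *Birc5*) and 4 lower (*Mki67*, *Mcm3*, *Top2a* and *Ccnb2*). Over all genes without overlap there, 2216 were higher and 2908 lower. In PAX3-FKHR/GFP against GFP-, *Ccne1*, *Cdc6*, *Aurkb* and *Kif11* were higher and *Mki67* and *Mcm2* lower, where 2024 of all genes were higher and 2621 lower. The direction was not tested.

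Of the 89 probe sets, 51 were not the one that stood for their gene, and some of these did differ. A probe set of *Cenpa*, which encodes the centromeric histone, with a mean of 6.76 over the 9 arrays read 6.79, 6.90 and 7.004 in PAX3-FKHR/GFP, 7.04, 7.15 and 7.02 in GFP/+, and 6.55, 6.28 and 6.13 in GFP-. It was called higher than GFP- in GFP/+ (0.75 ± 0.10, adjusted p = 0.00107, limma) and in PAX3-FKHR/GFP (0.58 ± 0.11, adjusted p = 0.00509, limma). It was the only one of the 89 called, where 1.36%, 4.65% and 5.35% of all probe sets were called in the 3 comparisons. The brightest probe set of *Cenpa* differed by 0.069 and 0.11 in the same comparisons. A dimmer probe set of *Bub1*, with a mean of 6.82, lay 0.40 ± 0.084 higher in GFP/+ than in GFP- (adjusted p = 0.0135, limma), and one of *Top2a*, with a mean of 6.21, lay 0.35 ± 0.075 higher (adjusted p = 0.0154, limma), the opposite sign to the brightest probe set of that gene. In PAX3-FKHR/GFP against GFP/+, a probe set of *Mcm5* with a mean of 5.94 lay 0.40 ± 0.086 higher (adjusted p = 0.0460, limma). What part of the transcript each of these probe sets reads was not tested.

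On one array many of the listed genes lay low together. PAX3-FKHR/GFP replicate 1 was the lowest of its 3 arrays in 34 of the 38 genes and replicate 3 the highest in 33, with median deviations from the group mean of -0.15, 0.026 and 0.12 for replicates 1, 2 and 3. Other genes with a mean of 10 or more deviated by -0.15, 0.032 and 0.12 on the same arrays (n = 1480), and genes under 6 by 0.034 on replicate 1 (n = 9206). In the other 2 groups the listed genes deviated by at most 0.037. After quantile normalization the 3 fusion arrays deviated by -0.0098, -0.0026 and 0.0086, and 0 of 38 genes were called in each comparison. The median SE of a difference in PAX3-FKHR/GFP against GFP/+ was 0.096 as deposited and 0.054 after quantile normalization. In that setting the adjusted p of *Mki67* in PAX3-FKHR/GFP against GFP- was 0.00043 in place of 0.164 and that of *Cdc6* 0.0081 in place of 0.0734 (limma), at differences of -0.28 and 0.26. That of *Ccne1* there was 0.0972 in place of 0.0485 (limma).

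**Figure D4:**
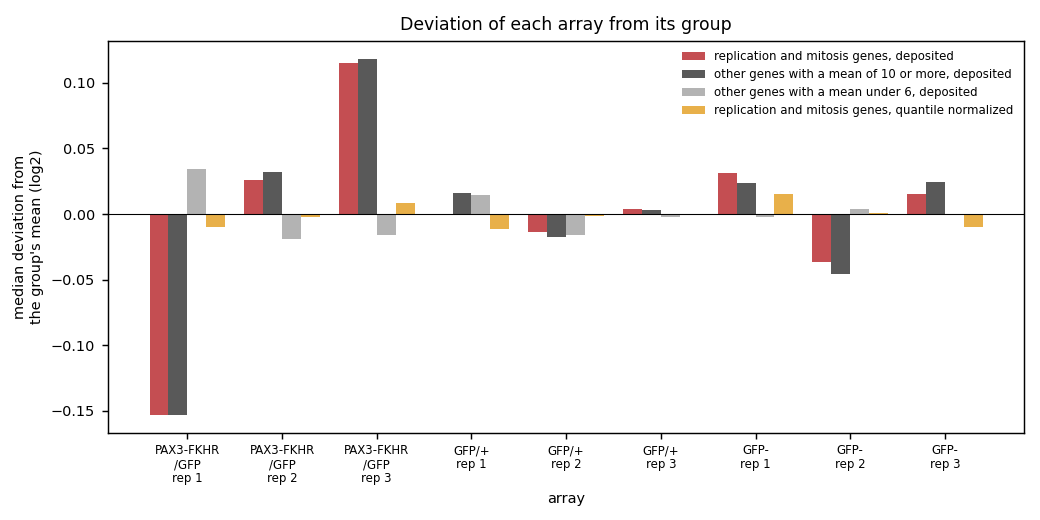
Median deviation from the group's mean (log2) on each array, for the 38 genes as deposited (red) and after quantile normalization (yellow), and for other bright and dim genes as deposited (dark and light grey). On PAX3-FKHR/GFP replicate 1 the listed genes and the other bright genes both lie at -0.15, and after quantile normalization the listed genes lie near 0.

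Other genes of the cell cycle, from lists written beside the first, gave few calls. Of 40 other replication genes, such as the origin recognition complex, *Cdc45* and *Fen1*, 0 were called in each comparison, with medians of 0.014, 0.017 and 0.030. Of 46 other mitosis genes 1 was called: *Cdc25b*, a phosphatase that activates Cdk1. It read 7.54, 7.50 and 7.47 in GFP/+ and 8.33, 8.08 and 8.24 in GFP-, and 7.74, 7.87 and 7.69 in PAX3-FKHR/GFP. It was lower in GFP/+ than in GFP- by 0.72 (-0.72 ± 0.074, adjusted p = 0.000141, limma) and lay between these in the fusion group.

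Of 22 regulators of G1 and S phase, *Myc*, a transcription factor that promotes growth and division, was called. It read 8.66, 8.89 and 9.12 in PAX3-FKHR/GFP, 8.69, 8.86 and 8.74 in GFP/+, and 7.96, 7.87 and 7.85 in GFP-. Both GFP positive groups lay above GFP-, GFP/+ by 0.87 ± 0.066 (adjusted p = 1.46e-05, limma) and the fusion group by 0.99 ± 0.11 (adjusted p = 8.49e-05, limma). Of 10 D-type cyclins and Cdk inhibitors, *Cdkn1a* was called in all 3 comparisons. It encodes p21, which blocks cyclin-dependent kinases, and read 7.69, 7.69 and 7.71 in PAX3-FKHR/GFP, 8.45, 8.41 and 8.60 in GFP/+, and 7.02, 6.96 and 7.05 in GFP-. The 3 groups did not overlap. It was higher in GFP/+ than in GFP- by 1.47 ± 0.069 (adjusted p = 4.31e-07, limma), above GFP- in the fusion group too, by 0.68 ± 0.070 (adjusted p = 5.44e-05, limma), and lower in PAX3-FKHR/GFP than in GFP/+ (-0.79 ± 0.080, adjusted p = 0.000391, limma). The cyclins *Ccnd2* and *Ccnd3* differed by -0.42 and -0.47 in GFP/+ against GFP-, short of the limit of 0.5. With no fold limit, 4 of the 10, *Cdkn1a* included, had an adjusted p under 0.05 there (limma), where 12.5% of all genes did. The level of the kinase inhibitor thus differed between groups in which the replication and mitosis genes did not pass the test.

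The same arrays separated the populations by lineage. *Pax3* itself, the targeted locus, read 8.25, 8.31 and 8.30 in PAX3-FKHR/GFP, 9.06, 9.29 and 9.24 in GFP/+, and 4.48, 4.82 and 4.20 in GFP-. Whether this probe set also reads the fusion transcript was not tested. Of 10 dermomyotome markers 9, all but *En1*, were called higher in GFP/+ than in GFP-, with a median of 2.28. *Pax3* is among these 9, and its call was set by the sort on GFP from its own locus. Of 12 markers of differentiated muscle, 7 were higher and 1 lower in GFP/+ than in GFP-, and 11 were lower in PAX3-FKHR/GFP than in GFP/+, with a median of -1.55. *Myog*, a regulator of muscle differentiation, was among the latter. Cells of other types moved with the sort too: 6 of 7 neural crest markers were higher in GFP/+ than in GFP-, while 7 of 8 primitive erythroid markers, 5 of 9 endothelial, 4 of 8 neural, 4 of 7 lateral and intermediate mesoderm and 6 of 7 surface ectoderm and endoderm markers were lower, as was 1 of 5 leukocyte markers. Of 6 sclerotome markers 4 were higher. The summed linear value of the erythroid markers, globins included, was 36327 to 36578 in GFP-, 1449 to 1526 in GFP/+ and 1996 to 2305 in PAX3-FKHR/GFP. That of the neural crest markers was 1103 to 1114, 2853 to 2980 and 3300 to 3979 in the same order. The part of these cell types in the values of the replication and mitosis genes was not tested.

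**Figure D5:**
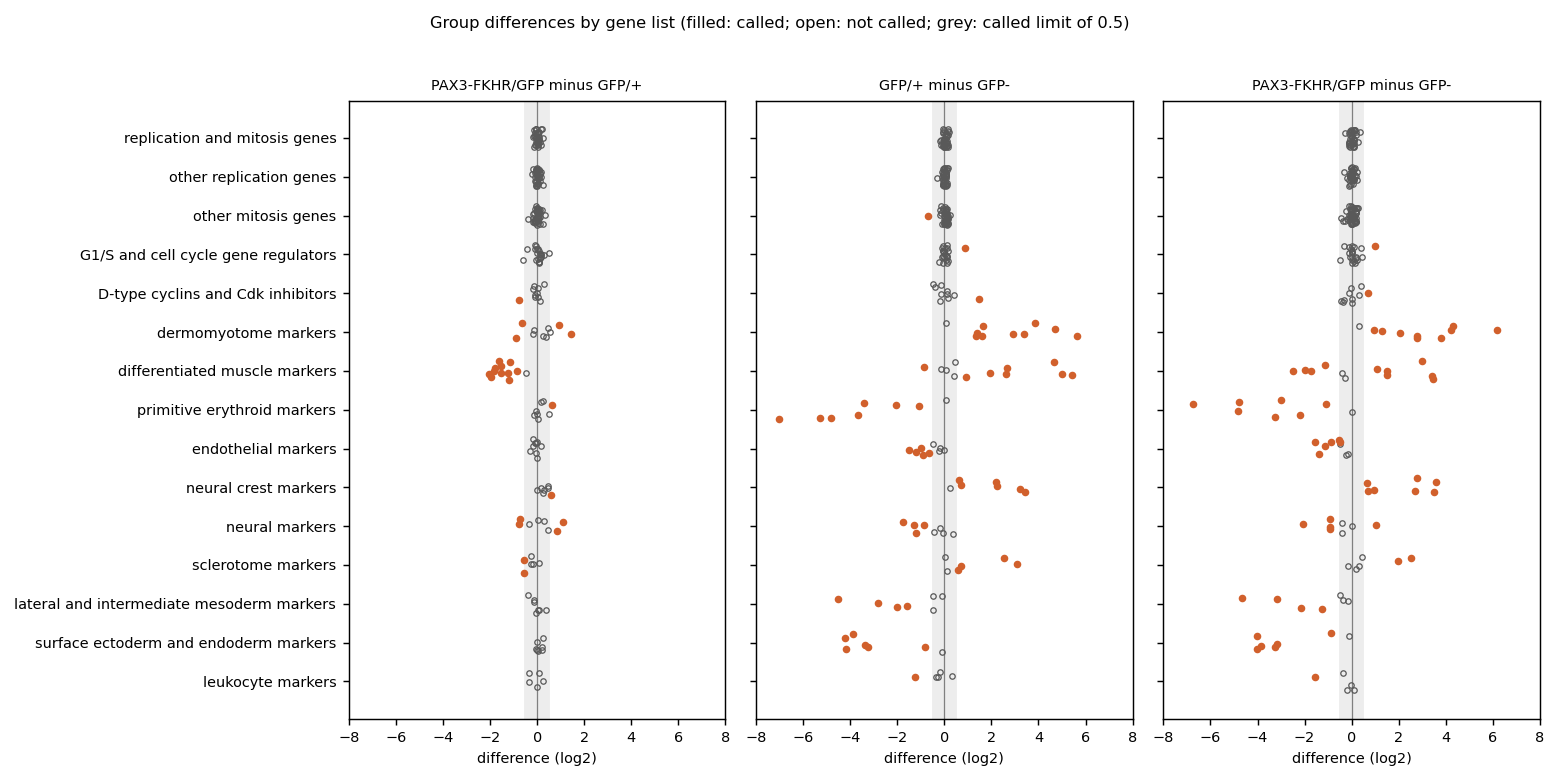
Difference between group means (log2, horizontal axis) of each gene, by list, in the 3 comparisons; filled points are called, open points are not, and the grey band marks the limit of 0.5. The 38 replication and mitosis genes lie within -0.27 and 0.37, while dermomyotome markers reach 6.17 and erythroid markers -7.01.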

How the data were processed

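RNA of 9 samples, 3 in each of 3 groups taken from the labels, was amplified in 2 cycles from the 3′ end and hybridised to Affymetrix mouse arrays. The authors deposited log2 expression values per probe set, made by RMA; neither its version nor which arrays were normalized as one set could be read from the sources used here. The study discarded probe sets called absent, which was not done here. The 64 control probe sets were left out, and genes were named from the platform annotation, in which 34945 of 45037 probe sets had 1 symbol, 932 several and 9160 none listed. A gene was read from its single-symbol probe set with the highest mean over the 9 arrays. limma 3.58.1 in R 4.3.3 (lmFit, eBayes with an intensity trend, two-sided) was fitted to the 6 samples of each comparison, with Benjamini-Hochberg adjustment over all 45037 probe sets. The number of arrays limits the precision. The method was tested on simulated data. The 3 largest rises and falls of each comparison, and called genes of the other lists, were named. The genes and lists were chosen with earlier results of these data known. Arrays of a group correlated at 0.996 to 0.998 with one another.

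Alternatives were the study's local pooled error test, another choice of probe set, the mean of a gene's probe sets, no trend, 1 fit of all 9 samples, centring, a filter on dim probe sets, no fold limit or one of 1.5, the replicate block, each array left out, and quantile normalization, which was added after the data were seen. Of all listed symbols, *Ccnb1*, *Chaf1a*, *Pax2* and a few others were not analysed here. Motifs were matched with Python 3.11.15.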

Additional observations from a re-analysis of the deposited data

How the results depend on the processing

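Over 17 alternatives for each comparison, the count of listed genes called remained 0 in PAX3-FKHR/GFP against GFP/+. In each of the other comparisons it was 1 gene higher with the probe set of highest variance (*Cenpa*) and 1 with no fold limit (*Ccna2* at 0.21 in GFP/+ against GFP-, *Ccne1* at 0.37 in PAX3-FKHR/GFP against GFP-); under every other alternative it was 0. Of 306 values of named genes under alternatives, 304 stayed on the same side of the limits and 6 changed sign, those of *Mcm3*, *Top2a* and *Cenpe* when other probe sets were used. Many of the 304 were fixed in advance. No trend, a single fit of all samples, the filter on dim probe sets, the raised fold limit and the replicate block left the differences unchanged. As none of these differences reached the fold limit, those settings could not add a call, here or in the counts above. Leaving out 1 array moved the median of the listed genes in PAX3-FKHR/GFP against GFP/+ between -0.069, when replicate 3 of the fusion group was dropped, and 0.063, when its replicate 1 was dropped, and that in PAX3-FKHR/GFP against GFP- between -0.022 and 0.096 without the same 2 arrays. In GFP/+ against GFP- it was -0.011 without GFP- replicate 2 and 0.029 without GFP- replicate 1. Over the other alternatives the 3 medians were -0.027 to 0.018, -0.0089 to 0.039 and 0.031 to 0.092. Leaving out 1 array moved the count of all genes called in PAX3-FKHR/GFP against GFP/+ from 368 to between 228 and 350. Over all alternatives the adjusted p (limma or the local pooled error test) ran from 0.0233 to 0.257 for *Ccna2* in GFP/+ against GFP-. In PAX3-FKHR/GFP against GFP- it ran from 0.0094 to 0.249 for *Ccne1*, from 0.0081 to 0.316 for *Cdc6* and from 0.00043 to 0.411 for *Mki67*. The causes were not tested.

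Deviations from the group mean correlated at -0.096 to 0.10 between same-numbered samples of different groups, over 9 pairs. With so few arrays in a group, these values do not settle whether the replicate numbers pair the samples. With the replicate number as a block, 0 listed genes were called in each comparison, and the medians were 0.0049, 0.0092 and 0.041 as without it. Neither result could differ: all groups hold the same replicate numbers, so the block leaves each difference unchanged, and none reached the fold limit. Only the adjusted p (limma) could move. In GFP/+ against GFP-, it fell from 0.0877 to 0.0491 for *Mki67* and from 0.0479 to 0.0265 for *Ccna2*. For *Aurkb* it rose there from 0.0832 to 0.122. Genes that are dim on these arrays, such as *Tyms*, are limited by signal over background.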
